A study of Mus musculus with 4 samples.

Results

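Transcripts of 66 axon guidance ligands and receptors were examined in spinal motor neurons of SOD1-YFP transgenic mice, out of 27189 gene entries measured. The members are all entries whose symbol names an ephrin or Eph receptor, a semaphorin of classes 3 to 7, a plexin, a neuropilin, a Slit, a Robo receptor, a netrin, Dcc or an Unc5 receptor, and expression was not used to choose them. Each symbol had 1 entry, which gave 33 ligands and 33 receptors.

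RNA-seq libraries were made from 2 wild-type SOD1-YFP mice (strain 592) and 2 G85R SOD1-YFP mice (strain 737), 1 library per mouse, at 3 months of age and before most G85R animals become paralyzed. Both strains are on a mixed C57BL/6J and SJL/J background and both express human SOD1 fused to yellow fluorescent protein from a 12-kb human genomic fragment, so the controls carry a transgene as well. The transgene is therefore driven by its own human regulatory sequence and not by a promoter restricted to motor neurons. Each genotype is 1 strain, and the G85R strain is homozygous for a high-copy insertion on mouse chromosome 4 while the wild-type strain has a lower copy number, so that mutation, copy number, insertion site and strain cannot be told apart. RNA came from large cell bodies of the ventral horn that were stained with Azure B, captured by laser and pooled within an animal. G85R cells with large fluorescent aggregates were left out of the capture, so the G85R libraries describe the remaining cells. RNA of axons, of nerve terminals and of muscle, where many of these molecules act, was not measured here.

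Guidance molecules steer growing axons by attraction or repulsion at the growth cone. Ephrins bind Eph receptor tyrosine kinases on contact between cells. Most of the secreted class 3 semaphorins bind neuropilins, which signal through plexins, while most other semaphorins bind plexins directly. Slits repel through Robo receptors, and netrins attract through Dcc or repel through Unc5 receptors. In the embryo these pairs sort motor axons between dorsal and ventral limb muscle and keep motor neurons on their side of the midline, and many of them stay expressed in the adult, where they also act at synapses.

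The captured RNA carried the defining transcripts of motor neurons. Chat, the acetylcholine-synthesizing enzyme, was at 66.3 and 81.2 RPKM (reads per kilobase of transcript, scaled to the mapped reads of the library) in wild-type and 49.6 and 65.5 RPKM in G85R libraries, and the vesicular transporter Slc18a3 was at 339 and 477 RPKM in wild-type and 309 and 433 RPKM in G85R. Estimated reads on genes numbered 21560318 to 25186594 per library. One library stood apart: G85R replicate 1 had the highest summed RPKM of the astrocyte list (811, against 496 to 522 in the other libraries) and of the microglia list (38.2, against 16.2 to 18.3), and the lowest of the motor neuron list (2534, against 3204 to 3594). G85R replicate 2, at 522 for astrocytes and 18.3 for microglia, was also above both wild-type libraries, so that both glial sums separated the genotypes. On average, 8 of 9 astrocyte and 9 of 9 microglia markers were higher in G85R. The genotypes did not overlap for 3 of the 9 astrocyte markers, with G85R higher. Of the 7 microglia markers with a mean of at least 1 RPKM, 3 did not overlap, also with G85R higher. Of all entries with such a mean, 54.7% were lower in G85R on average. The genotypes did not overlap for 41.2% of these entries, and 17.3% had both G85R values above. Aldoc, the largest term of the astrocyte sum, was at 458 RPKM in both wild-type replicate 1 and G85R replicate 2. In G85R replicate 2, Cx3cr1, Csf1r and Trem2 were below both wild-type libraries. Gfap, the astrocyte filament, was at 11.5, 17.1, 91.9 and 28.4 RPKM in wild-type replicates 1 and 2 and G85R replicates 1 and 2. In a bulk sample, a smaller share of a cell type and less RNA per cell of that type cannot be told apart.

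Most guidance genes were expressed at low to moderate levels. Of the 66 members, 48 had at least 1 RPKM in all 4 libraries, and 49 had a mean of at least 1 RPKM, the minimum for testing. A single gene led the order of levels. Sema7a, a membrane-anchored semaphorin, was at 66.4 and 75.6 RPKM in wild-type and 76.6 and 89.4 RPKM in G85R libraries, above every value of every other member. Efna3, an ephrin-A ligand, came next at 29.6 and 29.7 RPKM in wild-type and 32.8 and 30.9 RPKM in G85R, also clear of the members under it. From the class 6 semaphorin Sema6b downward, the ranges of neighboring tested members overlapped, so their order is not resolved.

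**Figure D1:**
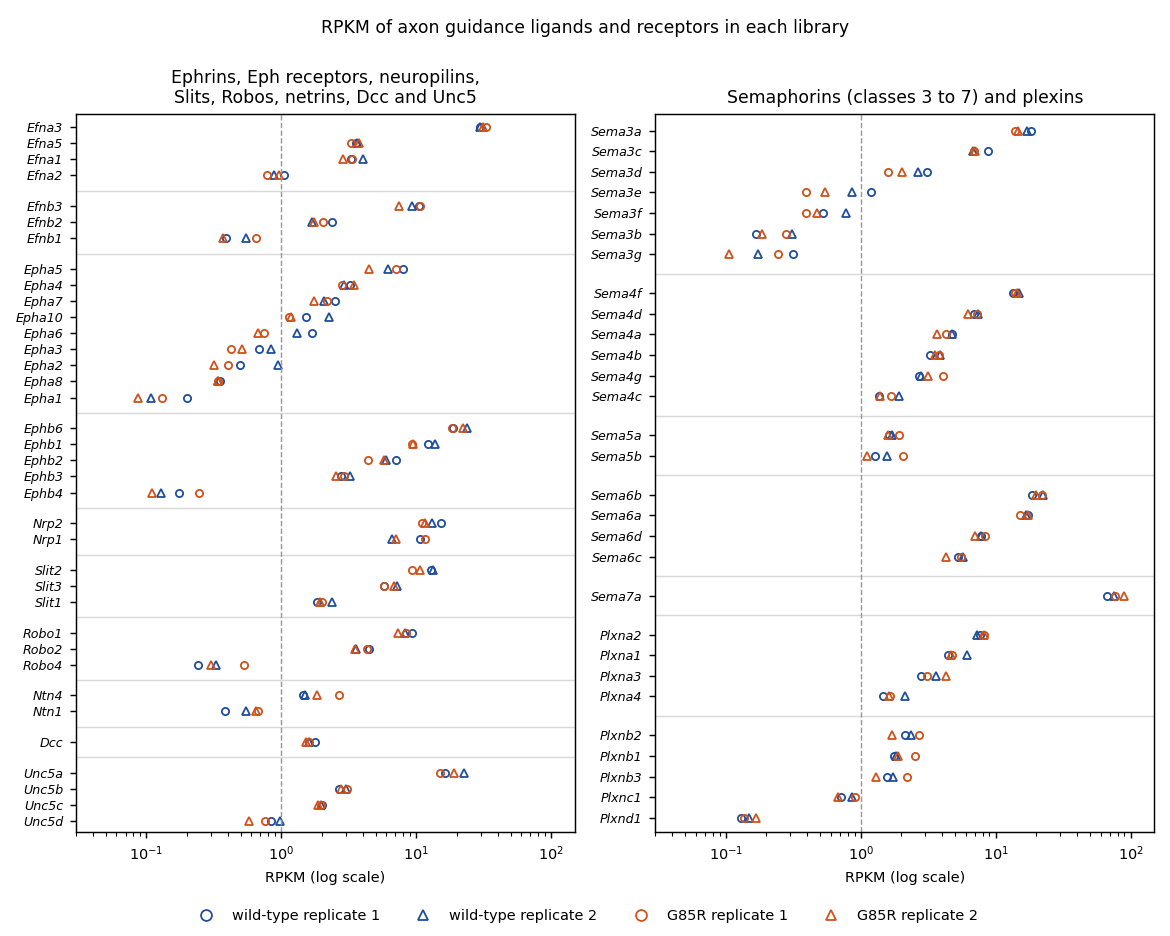
RPKM of every member above 0 in each of the 4 libraries, on a log axis, with circles for replicate 1 and triangles for replicate 2, blue for wild-type and orange for G85R. Sema7a and Efna3 lie to the right of all other members, and the dashed line at 1 RPKM marks the minimum mean for testing.

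No member passed the test between genotypes. Genotypes were compared with limma on log2(RPKM + 0.1) over 11530 entries, with Benjamini-Hochberg adjustment, and 0 of the 49 tested members had an adjusted p under 0.05, where 0.642% of all entries were called (74 entries). A likelihood ratio test in a log-linear model, as named in the study's methods, was also run, on rounded RPKM taken as counts. It gave 0 members at an unadjusted p under 0.05, and called 0.228% of 27189 entries after adjustment. Because RPKM values are far below the reads behind them, that test has little power for most members, and its 0 is no evidence of equal levels. By limma, 8 members had an unadjusted p under 0.05 (16.3%), against 11% of all tested entries. Of these, 7 were lower in G85R (14.3% of members, against 6.37% of all entries) and 1 was higher (against 4.66% of all entries). Values of the genotypes did not overlap for 16 members (32.7%), under the 41.2% of all entries. Both G85R values lay below both wild-type values for 10 members (20.4%, against 23.9%) and above them for 6 members (12.2%, against 17.3%).

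The mean log2 level was lower in G85R for 34 of the 49 tested members (69.4%, against 54.7% of all entries). The median log2 difference, G85R minus wild-type, was -0.07 for the members and -0.02 for all tested entries. The members' median moved to -0.15 without G85R replicate 1 and to -0.02 without wild-type replicate 2, beside -0.03 and -0.02 for all tested entries. It was -0.03 without G85R replicate 2 and -0.07 without wild-type replicate 1, beside -0.004 and -0.02. Of the 49 members, 36 were lower without replicate 1 of either genotype, and 27 without replicate 2 of either genotype. The limma 95% interval stayed within a 2-fold change in either direction for 45 of the 49 members and within a 1.5-fold change for 26. The exceptions to the 2-fold limit were Epha6, Epha10, Sema3d and Ntn4. Exact permutation of 2 libraries per genotype gives no two-sided p under 0.333 for any gene, so it was not used.

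**Figure D2:**
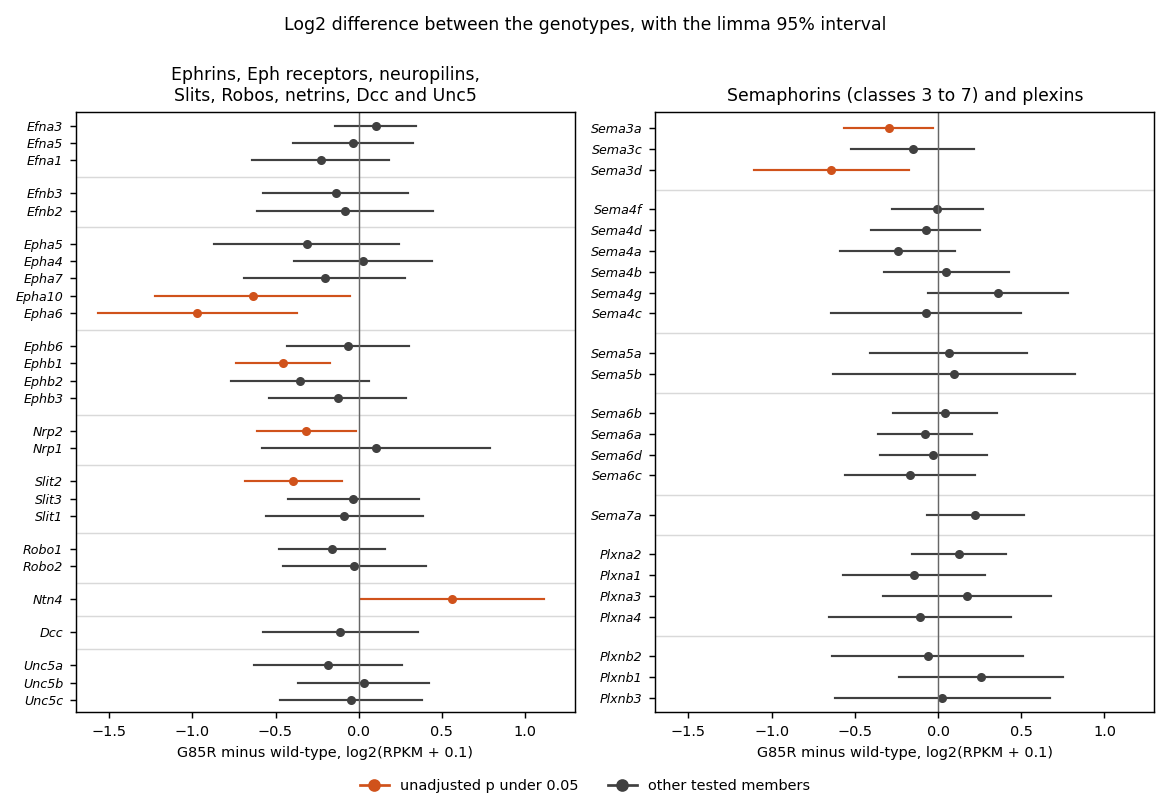
Difference between genotypes, G85R minus wild-type, on the log2(RPKM + 0.1) scale for the 49 tested members, with points for the limma estimate and bars for its 95% interval. The 8 members with an unadjusted p under 0.05 are in orange, 7 on the left of 0 and Ntn4 on the right.

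Eph receptors were mostly lower in G85R. These receptor tyrosine kinases had 14 members, of which 9 were tested, and 8 of the 9 had a lower mean log2 level in G85R, with a median difference of -0.31. Of the 9, 4 had both G85R values below both wild-type values and none had both above, where 23.9% and 17.3% of all tested entries did. Leaving out 1 library at a time left the median between -0.37 and -0.20, with 7 or 8 of 9 lower. Whether the Eph receptors differ from other genes was not tested, and 0 of them were called.

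With all 4 libraries, Epha6 had the largest difference of any tested member, while without wild-type replicate 1 Epha10 was at -0.91 and Epha6 at -0.80. Epha6 was at 1.673 and 1.299 RPKM in wild-type and 0.738 and 0.670 RPKM in G85R libraries, resting on 80 to 97 estimated reads in wild-type and 38 to 39 in G85R. The genotypes did not overlap, and the log2 difference was -0.97 ± 0.25 (SE, n = 2 per genotype; adjusted p = 0.205 by limma). The gene lies on the minus strand of chromosome 16 at 59653309 to 60605357 of NCBIM37 (mm9), and an exon of it overlaps Gm9017 on the other strand.

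Ephb1, a receptor that guides axons by contact with ephrin-B ligands, was at 12.2 and 13.7 RPKM in wild-type and 9.32 and 9.47 RPKM in G85R libraries. Both G85R libraries were lower and close to each other. The log2 difference was -0.46 ± 0.12 (SE; adjusted p = 0.213 by limma), and it was between -0.54 and -0.37 when each library was left out in turn. With at least 975 estimated reads in every library, Ephb1 is one of the better covered members. It lies on chromosome 9 at 101824458 to 102257023, on the minus strand, where its exons overlap Gm17708 on the other strand.

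Epha10, a receptor without an active kinase, was at 1.52 and 2.25 RPKM in wild-type and 1.13 and 1.18 RPKM in G85R libraries. The wild-type libraries differed from each other by more than wild-type replicate 1 differed from G85R. Its log2 difference was -0.64 ± 0.25 (SE; adjusted p = 0.417 by limma), which became -0.37 without wild-type replicate 2. Ephb2 was at 7.04 and 5.97 RPKM in wild-type and 4.41 and 5.79 RPKM in G85R, a log2 difference of -0.35 ± 0.17 (SE; adjusted p = 0.534 by limma), and of -0.16 without G85R replicate 1. Epha5 was at 8.00 and 6.16 RPKM in wild-type and 7.06 and 4.49 RPKM in G85R, and its genotypes overlapped.

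The Eph receptor of highest level showed little difference. Ephb6, which also lacks kinase activity, was at 18.8 and 23.6 RPKM in wild-type and 18.3 and 22.2 RPKM in G85R libraries, and in both genotypes replicate 2 was the higher one. Epha4, the receptor that sends motor axons to dorsal limb muscle, was at 3.22 and 2.91 RPKM in wild-type and 2.79 and 3.47 RPKM in G85R, with an adjusted p of 0.981 by limma. Epha7 and Ephb3 also overlapped between genotypes, at 1.75 to 3.21 RPKM over all libraries. The other 5 Eph receptors (Epha1, Epha2, Epha3, Epha8 and Ephb4) had means under 1 RPKM and were not tested.

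Summed over members, EphA receptors were at 18.6 and 16.9 RPKM in wild-type and 15.2 and 12.8 RPKM in G85R libraries. EphB receptors summed to 41.0 and 46.6 RPKM in wild-type and 35.2 and 40.1 RPKM in G85R. In both sums G85R was lower without overlap, although for EphB receptors the nearest libraries of the genotypes were closer to each other than the replicates of either.

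Among the ephrins, the ligands of these receptors, 5 of 8 were tested and no unadjusted p was under 0.05. Efna3 was the one whose genotypes did not overlap, with a log2 difference of 0.10 ± 0.10 (SE; adjusted p = 0.809 by limma), and of 0.061 without G85R replicate 1. Efnb3, a transmembrane ephrin, was at 10.4 and 9.30 RPKM in wild-type and 10.7 and 7.47 RPKM in G85R, so that G85R held both the highest and the lowest value. Efna5 was at 3.56 and 3.65 RPKM in wild-type and 3.30 and 3.74 RPKM in G85R. Efna1 and Efnb2 overlapped between genotypes at 1.69 to 4.02 RPKM, Efna2 and Efnb1 had means under 1 RPKM, and Efna4 is listed at 0 in all 4 libraries. The summed ephrins were at 50.7 and 49.8 RPKM in wild-type and 53.5 and 48.1 RPKM in G85R.

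Class 3 semaphorins, secreted repellents that mostly act through neuropilins, were lower on average in G85R in all 7 members, of which 3 were tested. For the untested Sema3b the log2 difference was only -0.006. Their sum was 32.2 and 28.5 RPKM in wild-type and 23.6 and 25.1 RPKM in G85R libraries, without overlap. The tested members were Sema3a, Sema3d and Sema3c, and 0 of them were called. Their median difference was -0.30, and stayed between -0.35 and -0.25 with 1 library left out, with 2 or 3 of the 3 lower.

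Sema3a, the best-known member, which collapses growth cones and is made by motor neurons themselves in the adult, was at 18.1 and 16.9 RPKM in wild-type and 13.8 and 14.7 RPKM in G85R libraries. Every G85R value was below every wild-type value. The log2 difference was -0.30 ± 0.11 (SE; adjusted p = 0.413 by limma), with at least 1563 estimated reads per library. Sema3a lies on the plus strand of chromosome 5 at 13125593 to 13602565, with no exon shared with another gene.

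Sema3d was at 3.09 and 2.65 RPKM in wild-type and 1.61 and 2.01 RPKM in G85R libraries, again without overlap. Its log2 difference was -0.64 ± 0.20 (SE; adjusted p = 0.298 by limma). It is a neighbor of Sema3a on chromosome 5, at 12383166 to 12588943 on the plus strand. Sema3c was at 8.81 and 6.78 RPKM in wild-type and 6.86 and 7.04 RPKM in G85R, where wild-type replicate 1 alone stood higher. Under the testing minimum, Sema3e was at 1.197 and 0.859 RPKM in wild-type and 0.393 and 0.545 RPKM in G85R, and Sema3f was at 0.526 and 0.785 RPKM in wild-type and 0.393 and 0.476 RPKM in G85R. Sema3b and Sema3g overlapped between genotypes and were no higher than 0.316 RPKM in any library.

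Membrane-bound semaphorins went both ways. In class 4, 4 of 6 members were lower in G85R and 2 higher. Sema4g was at 2.71 and 2.78 RPKM in wild-type and 4.04 and 3.13 RPKM in G85R libraries, with both G85R values above. Its log2 difference was 0.36 ± 0.18 (SE; adjusted p = 0.530 by limma), and was 0.18 without G85R replicate 1. Sema4a lay lower in G85R without overlap, at 4.72 and 4.71 RPKM in wild-type and 4.26 and 3.70 RPKM in G85R, with an adjusted p of 0.620 by limma. Sema4f, at 13.5 to 14.9 RPKM, and Sema4b, Sema4c and Sema4d overlapped between genotypes.

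Class 6 semaphorins are transmembrane ligands of plexin-A receptors, and Sema6a helps to hold motor neuron cell bodies inside the spinal cord during development. Sema6a was at 17.4 and 16.9 RPKM in wild-type and 15.1 and 17.3 RPKM in G85R libraries. Sema6b was at 18.6 and 22.4 RPKM in wild-type and 22.1 and 20.0 RPKM in G85R. Neither gene separated the genotypes, nor did Sema6c and Sema6d, and the class summed to 49.0 and 52.8 RPKM in wild-type and 51.1 and 48.6 RPKM in G85R. The class 5 members Sema5a and Sema5b were at 1.12 to 2.05 RPKM and overlapped as well.

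Sema7a, the highest member, acts through plexin-C1 and beta-1 integrins. Its log2 difference was 0.22 ± 0.12 (SE; adjusted p = 0.574 by limma), with both G85R values above both wild-type values, although wild-type replicate 2 and G85R replicate 1 were only 75.6 and 76.6 RPKM. The difference was 0.11 without G85R replicate 2, 0.13 without wild-type replicate 1 and 0.34 without G85R replicate 1. Its receptor Plxnc1 was at 0.676 to 0.909 RPKM in the same libraries. Sema7a lies on the plus strand of chromosome 9 at 57787920 to 57810671.

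Plexins, the signaling receptors for semaphorins, had no direction that held across libraries. Of 9 members 7 were tested, with a median log2 difference of 0.03, and none had an unadjusted p under 0.05. That median was -0.12 without G85R replicate 1 (4 of 7 lower), -0.04 without wild-type replicate 1 (4 of 7 lower), 0.09 without wild-type replicate 2 (0 of 7 lower) and 0.13 without G85R replicate 2. Plxna2 was at 7.67 and 7.31 RPKM in wild-type and 8.23 and 8.14 RPKM in G85R libraries, a small separation with a log2 difference of 0.13 ± 0.12 (SE; adjusted p = 0.792 by limma). Plxna1 was at 4.43 and 6.14 RPKM in wild-type and 4.75 and 4.68 RPKM in G85R, and Plxna3 at 2.82 and 3.62 RPKM in wild-type and 3.08 and 4.27 RPKM in G85R. For both genes the spread within a genotype exceeded the difference between the means. Plxnb1 was at 1.77 and 1.84 RPKM in wild-type and 2.51 and 1.88 RPKM in G85R, where G85R replicate 1 made most of the difference. Plxna4, Plxnb2 and Plxnb3 overlapped at 1.29 to 2.70 RPKM, and Plxnd1, at 0.129 to 0.168 RPKM, was not tested.

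Of the neuropilins, the ligand-binding partners of plexin-A receptors for class 3 semaphorins, Nrp2 was lower in G85R. It was at 15.3 and 13.1 RPKM in wild-type and 11.1 and 11.7 RPKM in G85R libraries, with a log2 difference of -0.31 ± 0.13 (SE; adjusted p = 0.426 by limma). The genotypes did not overlap, and the difference lay between -0.42 and -0.21 with 1 library left out, the latter without wild-type replicate 1. Nrp1 was at 10.7 and 6.62 RPKM in wild-type and 11.6 and 7.03 RPKM in G85R. In both genotypes replicate 1 was the higher library for Nrp1, by more than the genotypes differed. Nrp2 lies on the plus strand of chromosome 1 at 62749859 to 62865269.

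**Figure D3:**
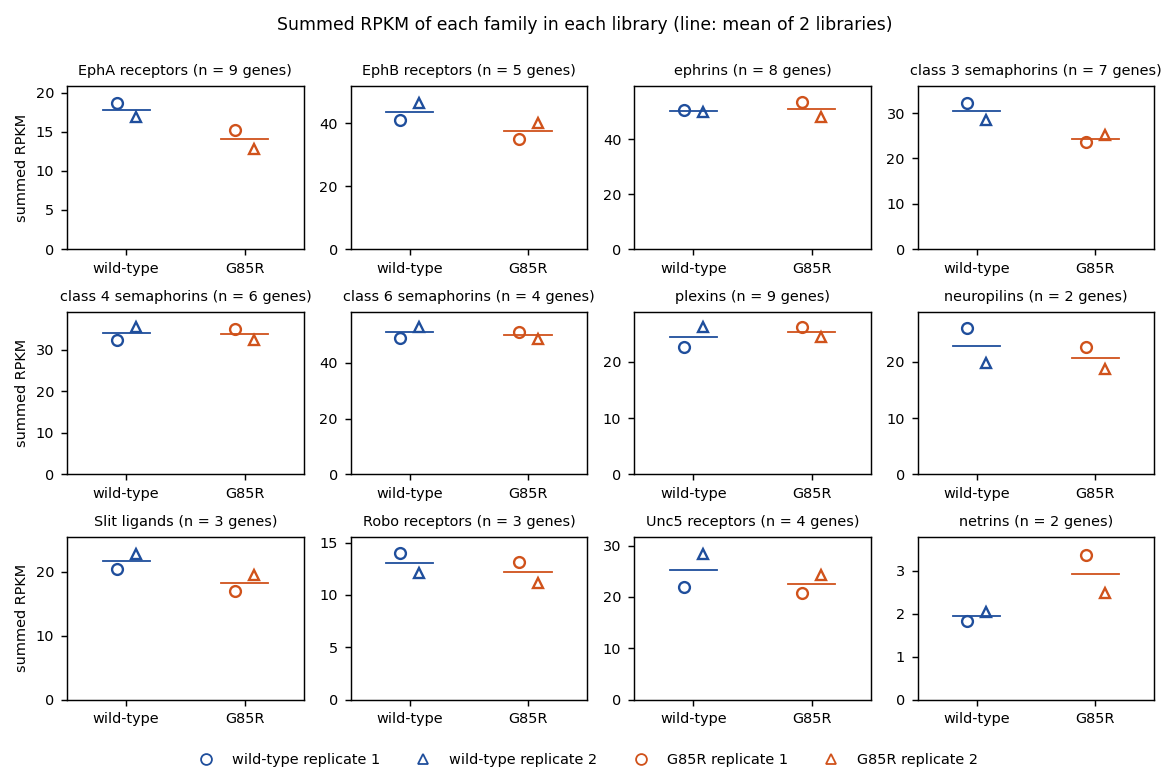
Summed RPKM of each family in the 4 libraries, in wild-type (left) and G85R (right), with circles for replicate 1, triangles for replicate 2 and a line at the mean of 2 libraries, on axes that start at 0. Sums of EphA receptors, EphB receptors, class 3 semaphorins and Slits lie lower in G85R and those of netrins higher, without overlap, while plexins, Robo and Unc5 receptors overlap.

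Slits, the ligands that repel axons from the midline, summed to 20.5 and 22.9 RPKM in wild-type and 17.0 and 19.4 RPKM in G85R libraries, and most of the difference lay in Slit2. Slit2 was at 12.9 and 13.3 RPKM in wild-type and 9.27 and 10.6 RPKM in G85R. Both G85R values were below both wild-type values, and the log2 difference was -0.39 ± 0.12 (SE; adjusted p = 0.309 by limma). It stayed between -0.49 and -0.30 with 1 library left out. Slit2 lies on the plus strand of chromosome 5 at 48374394 to 48697521. Slit3, at 5.74 and 7.23 RPKM in wild-type and 5.76 and 6.88 RPKM in G85R, and Slit1, at 1.85 to 2.37 RPKM, overlapped between genotypes.

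The Robo receptors that bind Slits overlapped too. Robo1 was at 9.31 and 8.23 RPKM in wild-type and 8.34 and 7.33 RPKM in G85R libraries, a log2 difference of -0.16 ± 0.14 (SE; adjusted p = 0.750 by limma), which was -0.070 without G85R replicate 2, -0.074 without wild-type replicate 1 and -0.25 without either of the others. Robo2 was at 4.43 and 3.54 RPKM in wild-type and 4.32 and 3.50 RPKM in G85R. In both genotypes replicate 1 was the higher library for both receptors. Robo4, a receptor of blood vessels, was at 0.241 to 0.528 RPKM and was not tested.

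Both netrins measured were higher on average in G85R, at low levels. Ntn4, a secreted netrin of basement membranes, was at 1.448 and 1.496 RPKM in wild-type and 2.69 and 1.83 RPKM in G85R libraries. Both G85R values were above both wild-type values, which were close to each other. The log2 difference was 0.56 ± 0.23 (SE; adjusted p = 0.442 by limma). It was 0.30 without G85R replicate 1, the library with the highest astrocyte and microglia sums, and the part of those cells in the result was not tested. Ntn4 lies on the plus strand of chromosome 10 at 93103426 to 93209952. Ntn1, the classic midline attractant, was at 0.382 and 0.544 RPKM in wild-type and 0.672 and 0.651 RPKM in G85R, under the testing minimum, and shares an exon with another annotated gene on the same strand.

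Netrin receptors differed by small amounts. Dcc, the attractive receptor, was at 1.78 and 1.60 RPKM in wild-type and 1.59 and 1.52 RPKM in G85R libraries, a log2 difference of -0.11 ± 0.20 (SE; adjusted p = 0.915 by limma), which was -0.042 without wild-type replicate 1 and -0.18 without wild-type replicate 2. Unc5a, the repulsive receptor of highest level, was at 16.4 and 22.4 RPKM in wild-type and 14.9 and 19.1 RPKM in G85R. As for Ephb6, replicate 2 was the higher library in both genotypes, and the genotypes overlapped. Unc5b and Unc5c overlapped at 1.87 to 3.09 RPKM. Unc5d was at 0.842 and 0.983 RPKM in wild-type and 0.750 and 0.571 RPKM in G85R and was not tested. Of the 17 untested members, 5 had both G85R values below both wild-type values (Unc5d, Sema3e, Epha3, Sema3f and Epha2), Ntn1 had both above, 10 overlapped, and Efna4 is at 0. Of all 7089 untested entries above 0 in some library, 18.8% had both G85R values below and 15.8% both above.

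Read by role, the receptors and the ligands differed in their sums. All 33 receptors summed to 146 and 151 RPKM in wild-type and 135 and 133 RPKM in G85R libraries, without overlap. All 33 ligands summed to 256 and 270 RPKM in wild-type and 264 and 268 RPKM in G85R, and overlapped, with Sema7a as the largest term. Of the tested members, 17 of 24 receptors and 17 of 25 ligands were lower in G85R. Without G85R replicate 2, 16 receptors and 11 ligands were lower, and the median of the ligands turned from -0.07 to 0.016. The difference between these roles was not tested.

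Genes that carry guidance signals inside the cell or assist the receptors were examined from a list of their own. Of 70 such genes, 68 were found by symbol and 65 were tested, with 0 called by limma at an adjusted p under 0.05. The genotypes did not overlap for 32 of the 65 (49.2%, against 41.2% of all entries), with both G85R values below for 20 (30.8%, against 23.9%) and above for 12 (18.5%, against 17.3%), and the median log2 difference was -0.03. An unadjusted p under 0.05 was found for 9 (13.8%, against 11%), of which 8 were lower in G85R (12.3%, against 6.37%). No test compared these genes with the ligands and receptors. Pak1 and Limk1, kinases that act on actin, and the small GTPase Cdc42 had the highest levels, at 108 to 172 RPKM, and the adjusted p of each was at least 0.576 by limma.

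Of the 8 lower genes, Mical2 was at 32.1 and 41.3 RPKM in wild-type and 23.6 and 21.6 RPKM in G85R libraries. The MICAL enzymes oxidize actin, and some of them act downstream of plexins. Its log2 difference was -0.69 ± 0.14 (SE; adjusted p = 0.125 by limma), and its relative Mical3 was at 9.17 and 9.33 RPKM in wild-type and 7.07 and 6.17 RPKM in G85R. Ret, the GDNF receptor that cooperates with Eph signaling in motor axon choice, was at 107 and 122 RPKM in wild-type and 81.4 and 87.9 RPKM in G85R, with a log2 difference of -0.43 ± 0.11 (SE; adjusted p = 0.198 by limma). Nrcam, an adhesion molecule that forms complexes with neuropilins, was at 60.0 and 55.5 RPKM in wild-type and 45.6 and 41.5 RPKM in G85R, with a log2 difference of -0.41 ± 0.11 (SE; adjusted p = 0.213 by limma).

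The others of the 8 were Trio, an exchange factor for small GTPases that acts in netrin signaling, Ablim3, Dpysl3 and Pak3. Their log2 differences were between -0.42 and -0.38 and their adjusted p-values between 0.314 and 0.426 by limma. Neo1, a receptor related to Dcc, was the gene that was higher. It was at 7.32 and 7.37 RPKM in wild-type and 9.11 and 8.95 RPKM in G85R, a log2 difference of 0.30 ± 0.12 (SE; adjusted p = 0.424 by limma).

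Chromosome 4 carries the transgene insertion of the G85R strain and holds 5 members, all Eph receptors (Epha2, Epha7, Epha8, Epha10 and Ephb2). All 3 tested ones were lower in G85R, with a median of -0.35, beside -0.01 for the 594 tested entries of that chromosome. Epha10 lies at 124558143 to 124595044 on its plus strand. The place of the insertion along the chromosome is not given in the sources used here, and a part of the insertion in these values was not tested. Chromosome 5 holds 7 members, of which 5 were tested (Sema3a, Sema3c, Sema3d, Slit2 and Epha5). All 5 were lower, and 3 had both G85R values below, where 26.9% of the 616 tested entries there did, and their median was -0.31 beside -0.04 for those entries. All of these chromosome summaries were made after the values were seen. Tested members were also mostly lower on other chromosomes, with 4 of 4 on chromosome 6 and 4 of 5 on each of chromosomes 3 and 16. Others went the opposite way, with a median of 0.22 for the 3 tested members of chromosome 9 and 0.30 for the 2 of chromosome 10.

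The span of the gene was set beside the differences. Of the tested members, 26 span at least 100 kb and 23 are shorter, a limit chosen after the values were seen. Of the 10 members with both G85R values lower, 8 were among the 26 long ones (30.8%) and 2 among the 23 shorter ones (8.7%). Shares also differed over all tested genes with a span (9656 genes, 83.7% of entries), at 37.5% of 1441 long genes and 21.9% of 8215 shorter ones, so that the long members were below the share of long genes. Spearman's rank correlation of the log2 difference with span was -0.26 over the 49 members and -0.24 over all genes, as a description across genes of the same 4 libraries. With 1 library left out it ranged from -0.41 to -0.06 over the members and from -0.25 to -0.15 over all genes. The median log2 difference was -0.098 for the long members and -0.065 for the shorter ones. Without G85R replicate 1 both medians were -0.15, and without wild-type replicate 1 they were -0.065 and -0.090. They were -0.18 and 0.087 without wild-type replicate 2, and -0.090 and 0.043 without G85R replicate 2. Epha6, Ephb1, Slit2, Sema3a, Sema3d and Nrp2 are in the longer class, as is Ntn4, which was higher in G85R, whereas Epha10, which was lower, is in the shorter class.

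**Figure D4:**
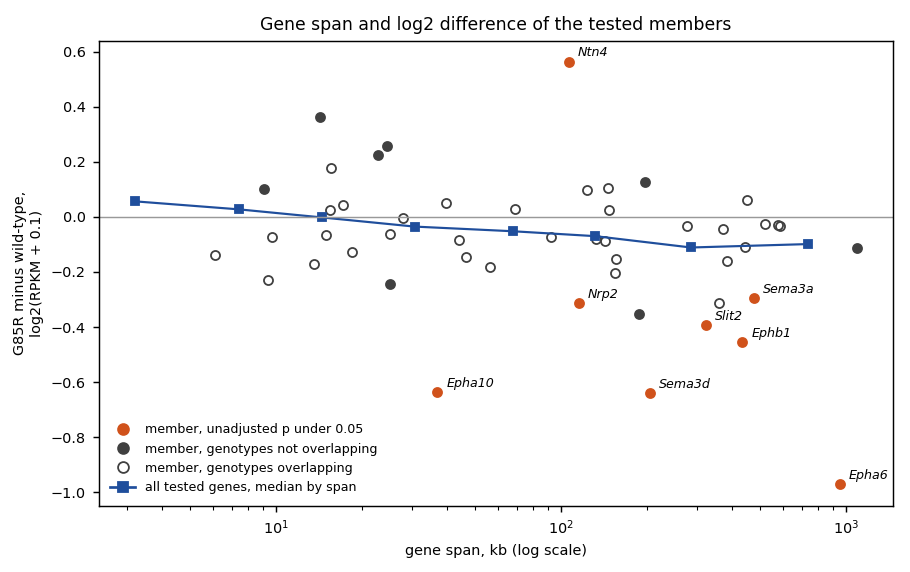
Log2 difference between genotypes, G85R minus wild-type on the log2(RPKM + 0.1) scale, against the span of the gene in kb on a log axis for the 49 tested members, with the median of all tested genes by span as blue squares. Members with an unadjusted p under 0.05 are in orange, and the medians of all genes lie lower toward long spans.

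Transcripts of other cell types also differed between these libraries. The summed meningeal and fibroblast markers were at 14.2 and 11.6 RPKM in wild-type and 3.78 and 6.27 RPKM in G85R libraries, mostly Dcn, while Col1a1 and Col1a2 were no higher than 0.37 RPKM. Red blood cell markers were at 2.31 and 2.72 RPKM in wild-type and 13.4 and 12.7 RPKM in G85R. Oligodendrocyte markers overlapped, at 832 to 1080 RPKM, as did those of their precursors. Endothelial markers were at 9.38 to 11.6 RPKM, lower in G85R without overlap, and interneuron markers at 186 to 217 RPKM, higher in G85R without overlap. Of the 8 motor neuron markers, 7 were lower on average in G85R, where 54.7% of all tested entries were. For 4 of the 8 both G85R values lay below both wild-type values, where 23.9% of all tested entries did. The part of these cell types in the differences of the guidance genes was not tested.

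**Figure D5:**
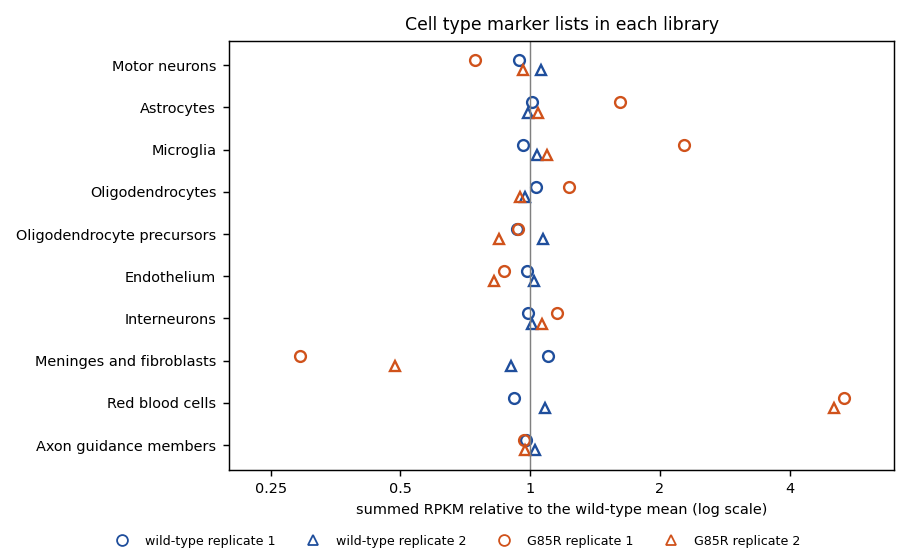
Summed RPKM of each list of cell type markers in each library, relative to the mean of the 2 wild-type libraries on a log axis, with the sum of the 66 members in the last line. G85R replicate 1 stands apart for astrocytes, microglia and motor neurons. Red blood cell, meningeal, endothelial, interneuron, astrocyte and microglia lists separate the genotypes. The sum of the members stays close to 1 but is also lower in G85R without overlap, at 402 and 422 RPKM in wild-type and 399 and 401 RPKM in G85R.

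Without G85R replicate 1, 3 members had an unadjusted p under 0.05 (Epha5, Epha6 and Ephb1) and 36 of 49 were lower, with 0 called. In that comparison, Epha6 had a log2 difference of -1.03, Epha10 of -0.61, Ephb1 of -0.44, Sema3d of -0.49, Slit2 of -0.30, Sema3a of -0.25 and Nrp2 of -0.28. Each of these genes had both G85R values below both wild-type values, so leaving out a G85R library could not change their direction, only the size.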

How the data were processed

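The authors mapped reads with Bowtie 0.12.3 to mm9 and splice junctions and quantified each UCSC gene cluster with Cufflinks. The deposited values are RPKM per gene, and a second column gives them again with 1 more read for each gene. The RPKM of 1 read was taken as the difference of both columns (median 0.0195 to 0.0226 per library), and reads behind a value were estimated from it. Since Cufflinks divides reads between isoforms, these are not counts, and no counting interval was computed.

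Libraries were compared by genotype, 2 against 2, on log2(RPKM + 0.1) by a two-sided moderated test (limma 3.58.1 run under R 4.3.3, variances shrunk toward a trend over levels) for entries with a mean of at least 1 RPKM, and adjusted over all of them. Differences on this scale understate the change of low genes. The script was tested on simulated data. Family sums and counts have no test. Gene positions and spans are from GENCODE gene models on NCBIM37, matched by symbol. Whether the libraries keep strand is not given in the sources used here, so reads of genes that overlap on opposite strands cannot be told apart.

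Values per library are given for members with an unadjusted p under 0.05, the highest members of each family (3 in the large ones), and the 10 largest differences among members whose genotypes did not overlap; other values were added after they were seen. The members, lists and tests were chosen with earlier results of these data known. Alternatives were other pseudocounts, minima, scalings and variance estimates, voom on the estimated reads, a replicate block, the log-linear test and leaving out each library. Tables were handled with Python 3.11.15, pandas 2.3.3 and numpy 2.4.6 and drawn with matplotlib 3.10.9. No sequences are printed here, and 1 marker list is not reported here.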

Additional observations from a re-analysis of the deposited data

How the results depend on the processing

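The 8 members with an unadjusted p under 0.05 became 4 with a minimum of 5 RPKM, 5 without a minimum and 0 by the log-linear test, and were 3 to 7 with 1 library left out. With that minimum of 5 RPKM, 8 members did not overlap, in place of 16, because fewer members were tested. With 1 library left out, 29 to 34 did not overlap, since 3 libraries overlap less often. The median log2 difference of the members was then between -0.15 and -0.021, with -0.15 reached without G85R replicate 1. Called entries among all genes numbered 49 without an intensity trend, 17 with a minimum of 5 RPKM, 112 without a minimum, 39 after quantile normalization and 78 to 188 with 1 library left out, against 74; no member was called under any of these. With 1 library left out, 0 to 1 pathway genes were called, the 1 being Mical2 without wild-type replicate 1.

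The labels do not say what replicates of the same number share. The difference between replicate 1 and replicate 2 correlated between genotypes over genes, at r = 0.22 (0.43 over entries of at least 20 RPKM). With a replicate block, 527 of all entries were called (4.57%), with 1 member (Ephb1, adjusted p = 0.048 by limma) and 4 pathway genes (Nrcam, Trio, Ret and Mical2). With only 2 pairs, this is no evidence of pairing.

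Of 352 recomputed differences of the 24 named members, 340 kept their sign and call and 11 changed sign, all with 1 library left out. Those ranges were -0.12 to 0.053 for Efna5, -0.39 to 0.12 for Efnb3, -0.63 to 0.0067 for Epha5, -0.23 to 0.10 for Ephb6, -0.38 to 0.087 for Plxna1, -0.053 to 0.41 for Plxna3, -0.18 to 0.018 for Sema6a, -0.090 to 0.18 for Sema6b and -0.41 to 0.044 for Unc5a. A left-out library leaves 1 in its genotype, which is assumed to vary like the other. The number of libraries, 2 per genotype, limits what can be called.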
